A study of Homo sapiens with 6 samples.

Results

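Cadherins, protocadherins and the CADM cell adhesion molecules were followed through knockdown of ZBTB11 or SET in H1299 cells, an established human lung cancer line. Members were all gene symbols that begin with PCDH, that are CDH followed by a number or that are CADM followed by a digit, which gave 93 of the 19934 symbols in the count tables. The cells, labelled NCI-H1299, human lung adenocarcinoma and wild type, were transfected 2 times over 4 days, using Lipofectamine 3000, with control siRNA (si-Ctr) or with siRNA that targets ZBTB11 (si-ZBTB11) or SET (si-SET). Individual oligos against ZBTB11 were used, and which of them each library received is not given in the sources used here. RNA was sequenced from 6 libraries, 2 of each group, which the study describes as biologically independent samples. All groups therefore share the line, the transfection reagent and the transfection itself, and an untransfected group was not analysed here. ZBTB11 is a zinc finger protein of the BTB family studied as a transcription factor, and SET is a nuclear oncoprotein and histone chaperone that was studied as its partner.

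Classical cadherins join neighbouring cells by calcium-dependent binding of their extracellular domains, and their cytoplasmic tails connect through catenins to actin. CDH1 (E-cadherin) is typical of epithelium and CDH2 (N-cadherin) of mesenchymal and neural cells, and a switch from the former to the latter often accompanies invasive growth. The alpha, beta and gamma protocadherins lie in neighbouring clusters on chromosome 5, where each variable exon has its own promoter and cells use a subset of them, a choice that depends on DNA methylation, CTCF and cohesin. The non-clustered protocadherins of the delta groups are best known in the nervous system. CADM proteins are immunoglobulin-type adhesion molecules, and CADM1 is known as a tumour suppressor of lung cancer.

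The libraries held 16653115 to 17694522 counts, so the floor of 3 counts corresponded to 0.170 to 0.179 CPM (counts scaled to the same library total), which covers counting error only. The 93 members together took 5232 to 5769 counts, or 0.0301% to 0.0339% of a library. SET had 11656 and 11007 counts with si-Ctr and 1032 and 1031 with si-SET. ZBTB11 had 925 and 1075 counts with si-Ctr, 548 and 544 with si-ZBTB11, and 846 and 708 with si-SET, where its log2 fold change was −0.39 (edgeR quasi-likelihood test with Benjamini-Hochberg adjustment, adjusted p = 2.12e-05). Of the epithelial markers, KRT8 and KRT18 had between 6083 and 8320 counts, whereas EPCAM had 5 to 12. The mesenchymal marker VIM had 24411 to 27810 counts, and the lung marker NKX2-1 had 37 to 61. The surfactant genes SFTPB and SFTPC had at most 7 counts. The leukocyte genes PTPRC, CD3E and CD14 had at most 6 counts. Of the fibroblast genes, DCN and LUM had at most 4 counts, whereas PDGFRA had 31 and 26 with si-Ctr, 48 and 47 with si-ZBTB11 and 29 and 34 with si-SET, and its log2 fold change of 0.75 with si-ZBTB11 did not pass (adjusted p = 0.0818). Of the endothelial genes, CDH5 had at most 1 count, VWF 2 to 12 and KDR 23 to 56. With si-ZBTB11 KDR was lower (log2 fold change −0.96, adjusted p = 0.0209) and VIM higher (0.12, adjusted p = 0.000993), and the part of these markers in the results was not tested.

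Most of these adhesion genes were barely transcribed in the line. Of the 93, 35 had at least 10 counts in every library, 22 never exceeded the floor of 3 counts and 7 had 0 counts in all 6 libraries. Such a 0 allows up to 3 counts in a library, which is 0.170 to 0.179 CPM. The clustered protocadherins made up 26 of the 35, namely 8 of 15 alpha, 8 of 16 beta and 10 of 22 gamma genes. Outside the clusters, the 10-count mark was reached in every library by 1 of 4 CADM genes, 2 of 5 type I cadherins, 1 of 13 type II cadherins, 0 of 5 atypical cadherins, 3 of 5 delta-1 and 2 of 5 delta-2 protocadherins, and 0 of 3 other protocadherins. CDH1 had 1 and 2 counts with si-Ctr, 2 and 0 with si-ZBTB11 and 3 and 0 with si-SET. The E-cadherin gene was thus at or under the floor in every library, and its level could not be compared at this depth.

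Levels between genes were compared as normalized CPM per kb of canonical exon that no other member shares. In the si-Ctr libraries the highest was CADM4 at 15.8 ± 0.461 (SD, n = 2), followed by CDH2 at 12.0 ± 0.667 (SD, n = 2), CDH24 at 8.85 ± 0.534 (SD, n = 2) and PCDHGA3 at 8.25 ± 0.211 (SD, n = 2). CDH24 and PCDHGA3 differed by little more than their spread. PCDHB6 stood at 6.85 ± 0.626 (SD, n = 2), PCDHB5 at 5.64 ± 0.210 (SD, n = 2) and PCDHGC3 at 5.29 ± 0.215 (SD, n = 2), and the last 2 again differed by little more than their spread. The other members with 10 counts in every library ran from PCDHB2 at 3.56 ± 0.173 (SD, n = 2) down to PCDH10 at 0.119 ± 0.0497 (SD, n = 2). How the counting handled reads from the exons shared within the alpha and gamma clusters is not stated. PCDHA8 had 0 counts in the si-ZBTB11 library of replicate 2, where PCDHAC1 had 134, so reads of the shared alpha exons were not added to every alpha gene.

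**Figure D1:**
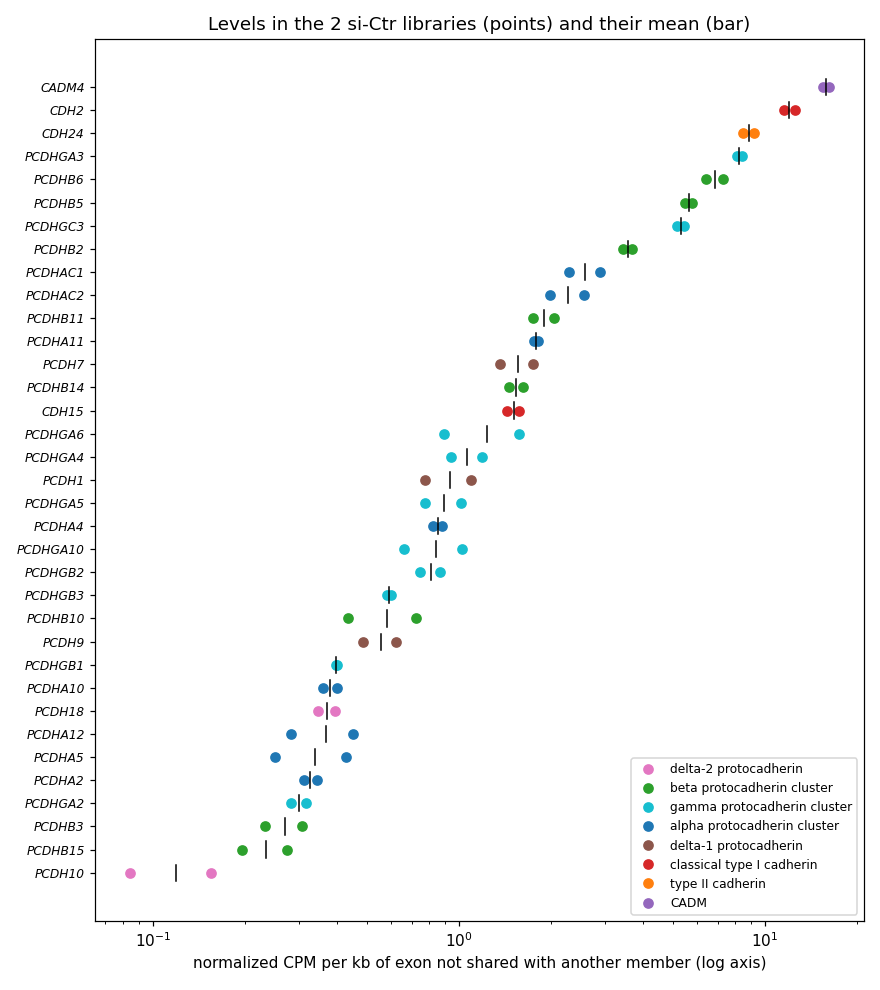
Level of the 35 members with at least 10 counts in every library, as normalized CPM per kb of unshared canonical exon on a log axis, in the 2 si-Ctr libraries (points, coloured by family) with their mean (bar). CADM4, CDH2, CDH24 and PCDHGA3 lead at 15.8, 12.0, 8.85 and 8.25, and PCDH10 is lowest at 0.119.

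Knockdown of ZBTB11 raised CADM2, PCDHB5 and PCDHGA3 and lowered CADM4 and PCDH1. These were the 5 members past an adjusted p of 0.05 among the 47 tested by edgeR's quasi-likelihood test, 3 higher (6.38%) and 2 lower (4.26%). CADM2 had 4 and 7 counts with si-Ctr and passed the count filter only through its si-ZBTB11 libraries. At those control counts it could enter the test only by being higher. Of all 13534 genes tested in this comparison, 9.94% were higher and 10.5% lower, so the members' shares lay below the background in both directions. The median log2 fold change of the members was 0.04, against 0.00 over all genes. At the criteria used in the study, an unadjusted p under 0.05 with a log2 fold change beyond 1 in either direction, 2 members passed, CADM2 and PCDHA2, where the background was 1.57%. In bulk RNA, fewer cells with a transcript and less of it per cell cannot be told apart.

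Knockdown of SET raised CADM2, PCDHB5 and PCDHGA3 as well, and it raised and lowered further members. Of 46 members tested, 8 were higher (17.4%), CADM2, PCDH10, PCDH19, PCDHA5, PCDHB2, PCDHB5, PCDHB11 and PCDHGA3, and 4 were lower (8.70%), CDH15, CDH24, PCDH1 and PCDHB6. The background over 13599 genes was 13.1% higher and 13.9% lower, so the share of members that rose was near the background and the share that fell was below it. The median log2 fold change of the members was 0.12, against 0.00 over all genes. At the criteria of the study 5 members passed, CADM2, PCDH10, PCDH19, PCDHA5 and PCDHB9, with a background of 2.15%. Both knockdowns were set against the same si-Ctr libraries, so the values shared between them are given side by side and were not counted as separate evidence. PCDHB5 and PCDHGA3 in both knockdowns, and CADM2 with si-SET, kept their calls in every alternative that gave them an adjusted p. Each of the other calls against si-Ctr was lost in at least 1 alternative. CADM2 and PCDH19 had fewer than 10 counts in both si-Ctr libraries and entered the test only through their knockdown libraries. The alternative with at least 10 counts in every library could not test these genes.

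**Figure D2:**
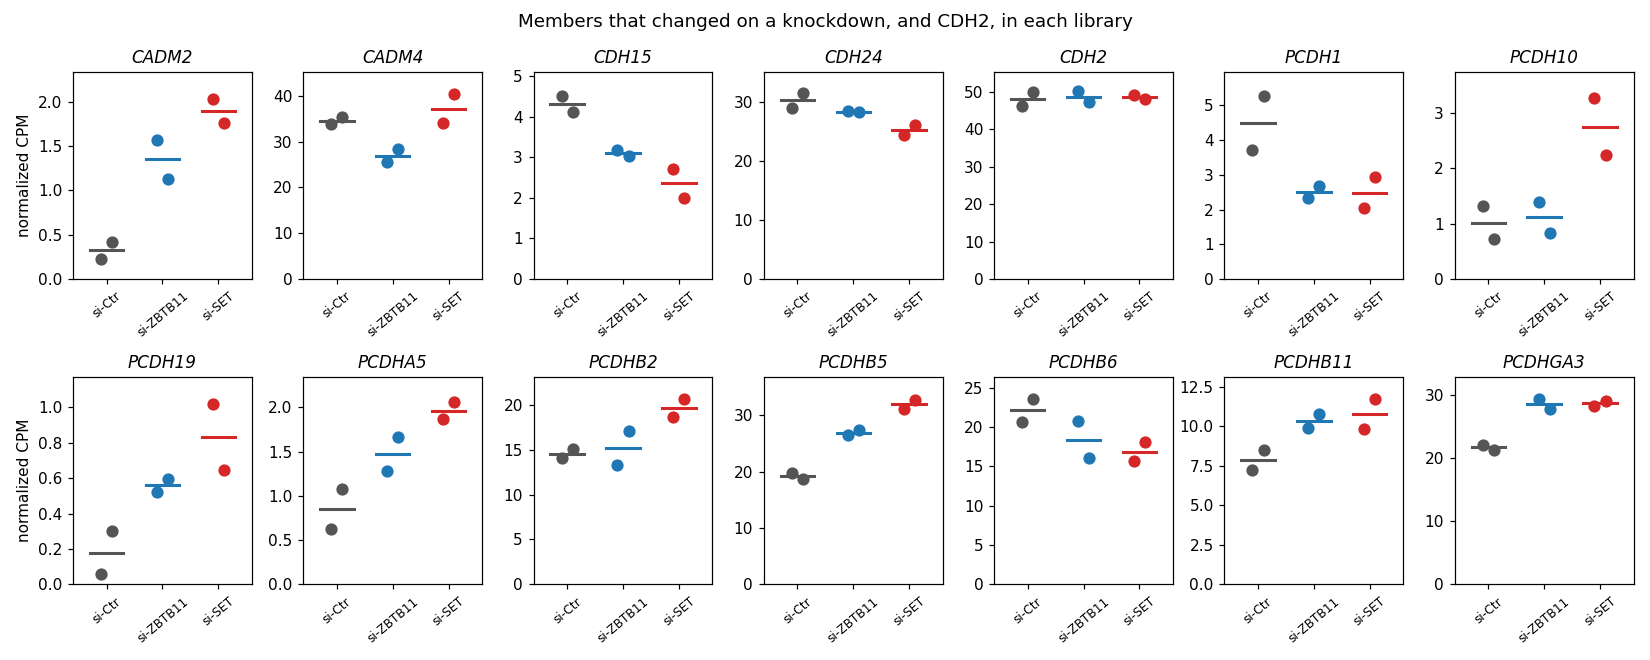
Normalized CPM in each library (points) and the group mean (bar) of the 13 members that changed on a knockdown, and of CDH2, with each vertical axis starting at 0. CDH2 stays at 46.3 to 50.2 in all 6 libraries, while the si-Ctr points of CADM2, PCDHB5 and PCDHGA3 lie below all 4 knockdown points.

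Among the CADM genes, CADM2 rose from the edge of detection with both knockdowns. CADM2, a synaptic adhesion molecule on chromosome 3 (hg38, 84958989 to 86074429, plus strand), had 4 and 7 counts with si-Ctr, 27 and 19 with si-ZBTB11 and 36 and 30 with si-SET. Both controls lay well below all 4 knockdown libraries, but all 6 counts were low. The gene passed the count filter only through its knockdown libraries. Its log2 fold changes were 2.05 for si-ZBTB11 (4.13-fold, standard error 0.55, edgeR adjusted p = 0.00312) and 2.54 for si-SET (5.80-fold, standard error 0.52, adjusted p = 4.76e-05). The call with si-ZBTB11 was lost without si-Ctr replicate 1 (log2 fold change 1.68, adjusted p = 0.106) and without si-ZBTB11 replicate 1 (1.79, adjusted p = 0.101), and over its alternatives the adjusted p ran from 0.00288 to 0.106.

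CADM4, also called nectin-like 4, was lower with si-ZBTB11. It lies on chromosome 19 (43622368 to 43639850, minus strand) and had 592 and 590 counts with si-Ctr, 441 and 475 with si-ZBTB11 and 601 and 687 with si-SET. The 2 si-ZBTB11 libraries were the lowest of the 6. The si-SET libraries, at 34.0 and 40.4 normalized CPM, overlapped the controls at 33.8 and 35.3. Its log2 fold changes were −0.36 for si-ZBTB11 (standard error 0.09, edgeR adjusted p = 0.00143) and 0.10 for si-SET (standard error 0.09, adjusted p = 0.399). Without si-ZBTB11 replicate 1 the former was −0.28 (adjusted p = 0.0631), within a range of 0.000784 to 0.0631 over the alternatives. CADM1 had 0 and 4, 0 and 2, and 1 and 2 counts in the si-Ctr, si-ZBTB11 and si-SET libraries, and CADM3 had 0 in all 6, so neither entered the main test.

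Of the classical cadherins, the level of CDH2 differed by less than the spread between replicates. It had 810 and 838 counts with si-Ctr, 865 and 793 with si-ZBTB11 and 872 and 820 with si-SET. Its normalized CPM was 48.2 ± 2.68, 48.7 ± 2.04 and 48.7 ± 0.762 (SD, n = 2 each). The libraries of the 3 groups overlapped, and the log2 fold change was 0.02 in both comparisons, with 95% confidence intervals of −0.12 to 0.16 for si-ZBTB11 and −0.13 to 0.16 for si-SET.

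CDH15 (M-cadherin), known from skeletal muscle, was lower with si-SET. It had 79 and 69 counts with si-Ctr, 55 and 51 with si-ZBTB11 and 48 and 34 with si-SET, so that both controls exceeded every knockdown library. With si-SET the log2 fold change was −0.87 (standard error 0.27, edgeR adjusted p = 0.00976) and −0.47 (standard error 0.24, adjusted p = 0.172) with si-ZBTB11. CDH24, the one type II cadherin with an appreciable level, had 506 and 527, 490 and 474, and 431 and 443 counts in the si-Ctr, si-ZBTB11 and si-SET libraries. The si-SET libraries were the lowest, and the change on the log2 scale was −0.26 (standard error 0.09, adjusted p = 0.0284). The si-SET call of CDH15 was lost without si-Ctr replicate 1 (−0.80, adjusted p = 0.0918), without si-SET replicate 2 (−0.67, adjusted p = 0.117) and with DESeq2 (0.125), within 0.00505 to 0.125. That of CDH24 was lost without si-Ctr replicate 2 (−0.20, adjusted p = 0.261), without si-SET replicate 1 (−0.22, adjusted p = 0.174) and with DESeq2 (0.210), within 0.0162 to 0.261.

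PCDH1, a delta-1 protocadherin known from airway epithelium, was lower with both knockdowns by a similar amount. It lies on chromosome 5 outside the clusters (141853090 to 141879246, minus strand) and had 65 and 88 counts with si-Ctr, 40 and 45 with si-ZBTB11 and 36 and 50 with si-SET. Both controls lay above all 4 knockdown libraries, although they differed from each other more than the knockdown libraries of either group. Its log2 fold changes were −0.84 for si-ZBTB11 (standard error 0.26, edgeR adjusted p = 0.0111) and −0.85 for si-SET (standard error 0.27, adjusted p = 0.0107). Without si-Ctr replicate 2, the higher control, the values were −0.57 (adjusted p = 0.306) and −0.58 (adjusted p = 0.271), the largest adjusted p over the alternatives of each. Without replicate 1 of the knockdown group they were −0.74 (adjusted p = 0.101) and −0.61 (adjusted p = 0.162), and with DESeq2 the adjusted p was 0.162 and 0.146. The lowest over the alternatives was 0.00568 and 0.00505. The other delta-1 genes with 10 counts in every library did not pass in either comparison. PCDH7 had 208 to 256 counts and log2 fold changes of −0.07 and 0.01 with si-ZBTB11 and si-SET, and PCDH9 had 53 to 79 counts and log2 fold changes of 0.02 and 0.21.

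The delta-2 genes PCDH10 and PCDH19 rose with si-SET. PCDH10, which acts in neural wiring and is silenced by methylation in many tumours, had 23 and 12 counts with si-Ctr, 24 and 14 with si-ZBTB11 and 58 and 38 with si-SET. Both si-SET libraries lay above the other 4, which overlapped. With si-SET the log2 fold change was 1.43 (standard error 0.37, edgeR adjusted p = 0.00163), or 2.69-fold, and 0.13 (standard error 0.45, adjusted p = 0.888) with si-ZBTB11. PCDH19, an X-linked gene mutated in an infantile epilepsy, had 1 and 5 counts with si-Ctr, 9 and 10 with si-ZBTB11 and 18 and 11 with si-SET. Its controls were the lowest libraries, 1 of them was under the floor, and the gene passed the count filter only through its si-SET libraries. Its log2 fold change with si-SET was 2.20 (95% confidence interval 0.77 to 3.63, adjusted p = 0.0160), and it did not reach the count filter for si-ZBTB11 against si-Ctr.

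Both of these calls depended on single libraries. PCDH10 lost its si-SET call without si-Ctr replicate 2 (1.07, edgeR adjusted p = 0.0811), without si-SET replicate 1 (1.12, adjusted p = 0.0999) and with DESeq2 (0.0575), within 0.000484 to 0.0999. PCDH19 lost its call without si-Ctr replicate 1 (1.46, adjusted p = 0.299) and without si-SET replicate 1 (1.83, adjusted p = 0.210), within 0.0151 to 0.299, and its log2 fold change reached 3.71 without si-Ctr replicate 2. PCDH18, also of the delta-2 group, had 36 and 39, 41 and 37, and 26 and 23 counts in the si-Ctr, si-ZBTB11 and si-SET libraries. Its si-SET libraries were the lowest, but its change of −0.63 on the log2 scale (standard error 0.36, adjusted p = 0.193) did not pass.

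In the protocadherin clusters, most variable exons have a promoter with a conserved sequence element around the letters CGCT, near which CTCF binds. The next lines show this element in the promoters of the clustered members whose calls are described next, with members of the same clusters that did not pass, because they share the element whether or not their counts moved. They are RefSeq promoters of GRCh38.p14, plus strand of chromosome 5, 5′ to 3′, and the capitals mark a CGCT in each line. The PCDHGC3 promoter holds 5 CGCT, and another of them stands in lower case at the left end of its line. Which of these is the element was not tested.
PCDHA5 (chr5:140821538-140821581): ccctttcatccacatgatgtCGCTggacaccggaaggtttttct
PCDHA10 (chr5:140855837-140855880): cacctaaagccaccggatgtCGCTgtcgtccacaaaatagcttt
PCDHAC1 (chr5:140926216-140926259): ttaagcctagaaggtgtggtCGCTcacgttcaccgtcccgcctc
PCDHB2 (chr5:141094540-141094583): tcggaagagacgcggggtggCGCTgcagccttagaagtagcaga
PCDHB5 (chr5:141135175-141135218): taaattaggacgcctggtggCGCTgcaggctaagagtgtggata
PCDHB10 (chr5:141192295-141192338): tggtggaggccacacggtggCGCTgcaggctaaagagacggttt
PCDHB14 (chr5:141223259-141223302): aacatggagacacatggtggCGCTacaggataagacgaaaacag
PCDHGA3 (chr5:141343763-141343806): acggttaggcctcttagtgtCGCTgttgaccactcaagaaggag
PCDHGA4 (chr5:141354956-141354999): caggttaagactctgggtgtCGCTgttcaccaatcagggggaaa
PCDHGC3 (chr5:141475895-141475938): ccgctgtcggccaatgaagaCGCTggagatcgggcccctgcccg

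RefSeq promoters were matched for 72 of the 93 members. PCDHB6, PCDHB11, PCDH10 and CADM2 were not among them. CGCT occurred on the forward strand between 30 and 90 bases before the start in 42 of the 47 clustered promoters (89.4%), against 19.3% of all 27305 promoters. By cluster this was 12 of 13 alpha, 12 of 14 beta and 18 of 20 gamma promoters. In PCDHB5 the word lay 11 bases before the start that RefSeq gives, and thus outside that interval. The longer word GGTGGCGCT, which contains CGCT and was searched on both strands, was found in 13 of 14 beta promoters, 0 of 13 alpha, 0 of 20 gamma and 0.524% of all promoters. PCDHB2 and PCDHB5, which passed the test with si-SET, and PCDHB10 and PCDHB14, which did not, all carry it. CCGGAAG and CAGGAAG, the words of the ZBTB11 motif found in the study, were searched on both strands and occurred in 2.78% and 12.5% of the 72 member promoters, against 10.7% and 12.8% of all promoters. PCDHA5 holds the former and PCDHB2 the latter, whereas PCDHB5, PCDHGA3, PCDH1, PCDH19 and CADM4 hold neither in this window. The PCDH1 window (141869578 to 141869877, minus strand) lies inside the gene, whose annotated start is at 141879246. The sequence at that start was not searched.

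PCDHB5 and PCDHGA3 are the clustered genes that passed in both knockdowns, and their whole promoter windows are shown for that reason, with CGCT in capitals.
PCDHB5 (chr5:141134956-141135255): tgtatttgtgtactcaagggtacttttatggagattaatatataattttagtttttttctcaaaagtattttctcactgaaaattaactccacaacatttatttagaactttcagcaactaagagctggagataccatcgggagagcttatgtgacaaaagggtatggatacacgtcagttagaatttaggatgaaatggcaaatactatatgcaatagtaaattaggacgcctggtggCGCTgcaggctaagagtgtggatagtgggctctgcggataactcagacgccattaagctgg
PCDHGA3 (chr5:141343579-141343878): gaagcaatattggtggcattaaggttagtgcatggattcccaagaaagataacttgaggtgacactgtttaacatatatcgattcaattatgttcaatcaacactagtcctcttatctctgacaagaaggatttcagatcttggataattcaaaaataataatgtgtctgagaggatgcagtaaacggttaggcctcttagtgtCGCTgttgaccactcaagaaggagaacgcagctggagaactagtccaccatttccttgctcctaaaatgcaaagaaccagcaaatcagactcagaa

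The beta cluster was the most counted of the 3, and its sum was higher in the knockdown libraries. Its 16 genes summed to 75.8 and 79.9 normalized CPM in the si-Ctr libraries, 84.9 and 86.9 with si-ZBTB11 and 94.1 and 102 with si-SET. The groups were ordered without overlap, and the sums were not tested. PCDHB5 alone went from 19.2 ± 0.715 CPM with si-Ctr to 26.9 ± 0.696 with si-ZBTB11 and 32.0 ± 1.09 with si-SET (SD, n = 2 each), most of the difference between the sums. Of the 12 beta genes tested, 1 passed as higher with si-ZBTB11 (8.33%, against 9.94% of all genes tested) and 0 as lower. With si-SET 3 passed as higher (25%, against 13.1%) and 1 as lower (8.33%, against 13.9%). The gamma cluster summed to 57.9 and 55.1, 64.5 and 61.2, and 63.2 and 62.8 in the same order of groups, and the alpha cluster to 26.5 and 28.0, 30.6 and 32.0, and 23.3 and 27.9. In the gamma cluster all 4 knockdown libraries were above both controls, and in the alpha cluster only the si-ZBTB11 libraries were.

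**Figure D3:**
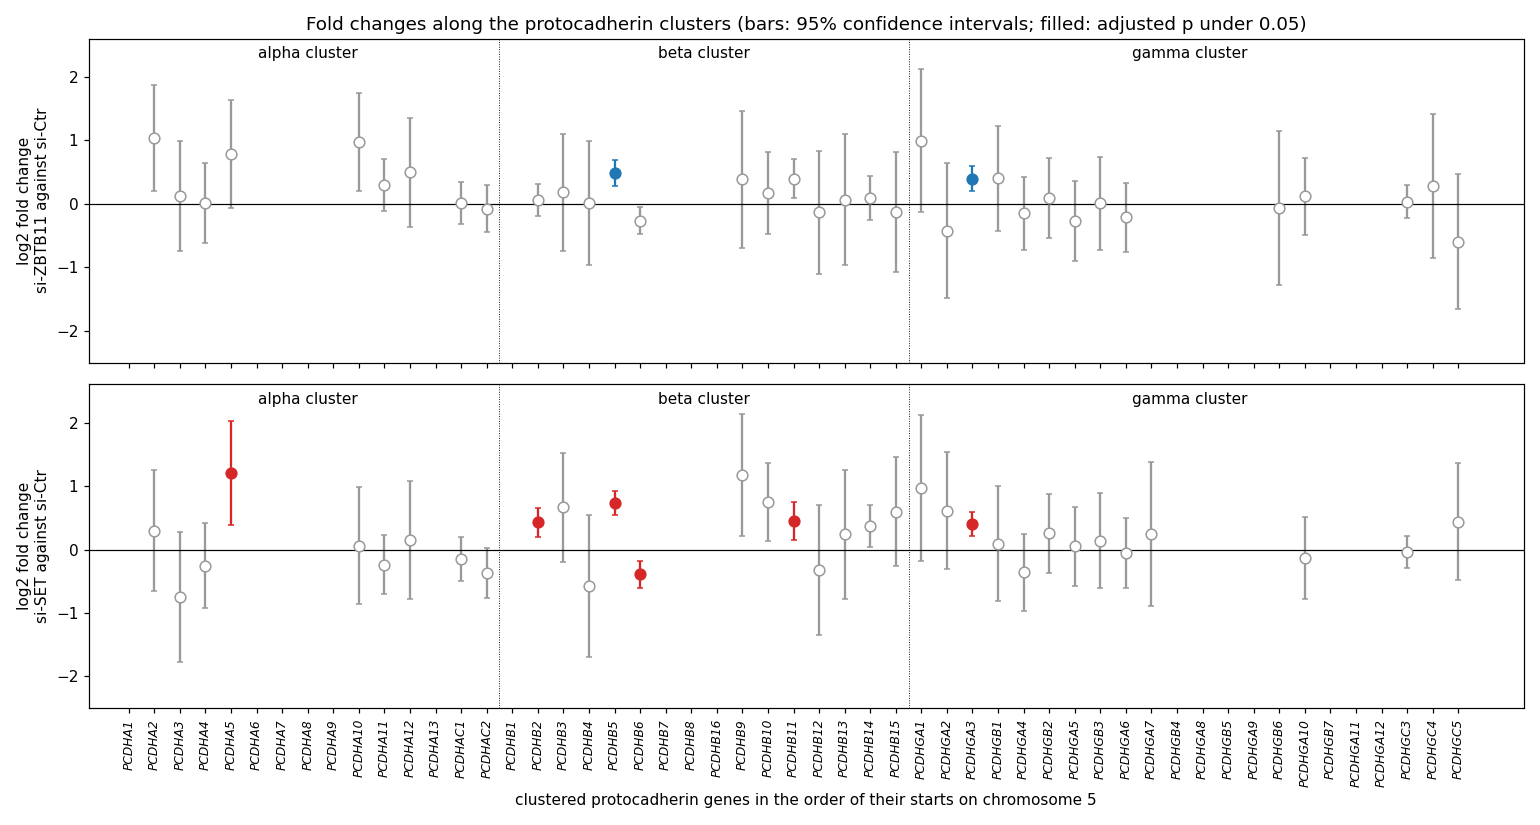
Log2 fold change (points) with its 95% confidence interval (bars) of each tested clustered protocadherin, in gene order along chromosome 5, for si-ZBTB11 (top) and si-SET (bottom) against si-Ctr, with filled points for an adjusted p under 0.05. Filled points are PCDHB5 and PCDHGA3 in both panels (0.49 and 0.40 with si-ZBTB11, 0.73 and 0.40 with si-SET), and with si-SET also PCDHA5, PCDHB2, PCDHB6 and PCDHB11.

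PCDHB5 showed the clearest change of all members. It is a single-exon gene (141135206 to 141138615, plus strand) and had 345 and 313 counts with si-Ctr, 456 and 460 with si-ZBTB11 and 552 and 557 with si-SET. The 3 groups were far apart compared with the distance between their replicates. The log2 fold change was 0.49 (standard error 0.10, edgeR adjusted p = 9.65e-05) with si-ZBTB11, or 1.40-fold, and 0.73 (standard error 0.10, adjusted p = 1.27e-09) with si-SET, or 1.66-fold. Its exon overlaps an unnamed gene model of the annotation (ENSG00000280029), and 19.8% of its 31-base words occur in other genes.

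PCDHB6, the neighbour of PCDHB5, moved the other way with si-SET. It had 362 and 394 counts with si-Ctr, 358 and 269 with si-ZBTB11 and 277 and 307 with si-SET. The si-SET libraries lay below both controls, while the si-ZBTB11 libraries were far apart from each other. The log2 fold change was −0.39 (standard error 0.11, edgeR adjusted p = 0.00387) with si-SET and −0.26 (standard error 0.11, adjusted p = 0.0844) with si-ZBTB11. Without si-ZBTB11 replicate 1, the latter was −0.46 (adjusted p = 0.00766). The si-SET call was lost without si-Ctr replicate 2 (−0.30, adjusted p = 0.122), without si-SET replicate 1 (−0.30, adjusted p = 0.0910) and with DESeq2 (0.0962), within 0.00193 to 0.122. PCDHB6 also overlaps an unnamed gene model (ENSG00000272154).

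The most counted beta gene differed between the groups. PCDHB6 took 27.3% and 29.5% of the beta counts in the si-Ctr libraries, 24.5% and 18.4% with si-ZBTB11 and 16.6% and 17.7% with si-SET. PCDHB5 took 26.0% and 23.4% with si-Ctr, 31.1% and 31.6% with si-ZBTB11 and 33.1% and 32.1% with si-SET. PCDHB6 was thus the most counted beta gene in both si-Ctr libraries, and PCDHB5 in the 4 knockdown libraries. These shares were taken within each library, so they do not depend on scaling between libraries, and they were not tested.

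**Figure D4:**
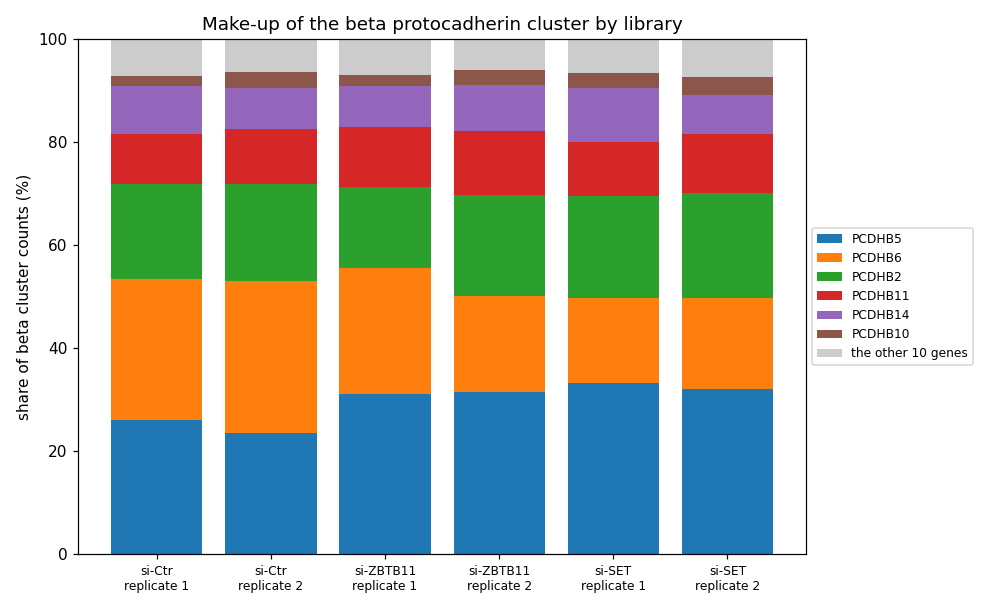
Share of the beta cluster counts (percent, stacked) that each of the 6 most counted beta genes took in every library, with the other 10 genes in grey. The share of PCDHB6 is 27.3% and 29.5% with si-Ctr against 16.6% and 17.7% with si-SET, and that of PCDHB5 is 26.0% and 23.4% against 33.1% and 32.1%.

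PCDHB2 and PCDHB11 were the other beta genes that passed with si-SET. PCDHB2 had 246 and 252 counts with si-Ctr, 229 and 286 with si-ZBTB11 and 330 and 351 with si-SET, and PCDHB11 had 127 and 142, 171 and 181, and 174 and 199. Both si-SET libraries of PCDHB2 exceeded all others, whereas all 4 knockdown libraries of PCDHB11 exceeded the controls. With si-SET the log2 fold change was 0.43 (standard error 0.12, edgeR adjusted p = 0.00244) for PCDHB2 and 0.45 (standard error 0.16, adjusted p = 0.0210) for PCDHB11. With si-ZBTB11 these were 0.06 (adjusted p = 0.806) and 0.40 (standard error 0.16, adjusted p = 0.0606). PCDHB2 lost its si-SET call with DESeq2 (0.0744), within 0.00165 to 0.0744. PCDHB11 lost it without si-Ctr replicate 1 (0.34, adjusted p = 0.214), without si-SET replicate 2 (0.32, adjusted p = 0.231) and with DESeq2 (0.219), within 0.0124 to 0.231.

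Of the 12 beta genes tested, 9 had a positive log2 fold change in each knockdown, with a median of 0.08 with si-ZBTB11 and 0.44 with si-SET. Beta genes with 10 counts in every library that did not pass included PCDHB10, with 25 and 40, 32 and 41, and 50 and 61 counts in the si-Ctr, si-ZBTB11 and si-SET libraries. Its si-SET libraries were the highest, but its log2 fold change of 0.75 had an edgeR adjusted p of 0.0617. It passed without si-Ctr replicate 2 (1.16, adjusted p = 0.0357). PCDHB14 had 125 and 108, 115 and 132, and 173 and 132 counts, and its log2 fold change of 0.37 with si-SET had an adjusted p of 0.0992. Without si-SET replicate 2 it passed at 0.52 (adjusted p = 0.0394). PCDHB3 and PCDHB15 had 11 to 27 counts, and their log2 fold changes with si-SET were 0.67 (adjusted p = 0.274) and 0.59 (adjusted p = 0.341).

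In the gamma cluster, PCDHGA3 rose with both knockdowns. It had 386 and 356 counts with si-Ctr, 507 and 465 with si-ZBTB11 and 499 and 494 with si-SET. All 4 knockdown libraries lay above both controls and the 2 knockdowns overlapped. The log2 fold change was 0.40 (standard error 0.10, edgeR adjusted p = 0.00103) with si-ZBTB11 and 0.40 (standard error 0.10, adjusted p = 0.000786) with si-SET, or 1.32-fold in each. PCDHGA3 held 38.1% and 38.6% of the gamma counts with si-Ctr, 45.6% and 45.3% with si-ZBTB11 and 44.6% and 46.3% with si-SET. Of its 31-base words, 57.3% occur in other genes, mostly because the gamma genes share their constant exons, so its level is uncertain.

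The remaining gamma genes did not pass in either comparison with si-Ctr. PCDHGC3, one of the C-type genes that cells can express more uniformly, had 217 to 259 counts, and its log2 fold changes were 0.04 (95% confidence interval −0.22 to 0.29) with si-ZBTB11 and −0.03 (−0.28 to 0.22) with si-SET. PCDHGA4, PCDHGA5, PCDHGA6 and PCDHGA10 had 25 to 72 counts, with log2 fold changes from −0.36 to 0.12 over the 2 comparisons. PCDHGB1, PCDHGB2 and PCDHGB3 had 11 to 50 counts, with log2 fold changes from 0.01 to 0.40. PCDHGA2 had 13 and 14 counts with si-Ctr, 10 and 10 with si-ZBTB11 and 19 and 23 with si-SET, which put the controls between the knockdowns. Its log2 fold changes were −0.42 (edgeR adjusted p = 0.658) and 0.61 (adjusted p = 0.360).

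In the alpha cluster 1 gene passed, PCDHA5 with si-SET. It had 11 and 18 counts with si-Ctr, 22 and 28 with si-ZBTB11 and 33 and 35 with si-SET. The groups were ordered without overlap, at low counts. The log2 fold change was 1.20 (standard error 0.42, edgeR adjusted p = 0.0227) with si-SET and 0.79 (standard error 0.43, adjusted p = 0.205) with si-ZBTB11. The si-SET call was lost without si-Ctr replicate 1 (0.86, adjusted p = 0.275), without si-SET replicate 1 (1.27, adjusted p = 0.0747), without si-SET replicate 2 (1.13, adjusted p = 0.128) and with DESeq2 (0.196), within 0.00963 to 0.275.

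PCDHA10 and PCDHA2 stood higher with si-ZBTB11 without passing. PCDHA10 had 16 and 17 counts with si-Ctr, 32 and 33 with si-ZBTB11 and 18 and 17 with si-SET, and PCDHA2 had 15 and 13, 21 and 36, and 18 and 17. In both genes the 2 si-ZBTB11 libraries were the highest of the 6. The log2 fold changes with si-ZBTB11 were 0.98 (edgeR adjusted p = 0.0642) for PCDHA10 and 1.03 (adjusted p = 0.0731) for PCDHA2. When only genes with at least 10 counts in every library were tested, both passed, with adjusted p = 0.0418 and 0.0480. PCDHAC1 and PCDHAC2, the C-type genes at the end of the cluster, had 116 to 146 and 78 to 128 counts. Their log2 fold changes were 0.01 and −0.08 with si-ZBTB11 and −0.15 and −0.37 with si-SET, and none passed. PCDHA4, PCDHA11 and PCDHA12 had 12 to 95 counts and log2 fold changes from −0.25 to 0.50.

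The knockdowns were also compared with each other. Of 45 members tested in si-ZBTB11 against si-SET, 0 were higher with si-ZBTB11 and 4 were lower (8.89%), CADM4, PCDH10, PCDHB2 and PCDHB5, against a background of 9.61% higher and 8.58% lower over 13549 genes. At an unadjusted p under 0.05, edgeR gave 2 members higher, PCDHA10 and PCDHA11, and DESeq2 gave 0. The median log2 difference was −0.00, as over all genes. At the criteria of the study PCDH10 and PCDHGA2 passed, where the background was 1.36%.

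CADM4 differed by −0.46 (standard error 0.09, edgeR adjusted p = 0.000407) between the knockdowns and PCDH10 by −1.30 (standard error 0.36, adjusted p = 0.00973), both with lower levels after si-ZBTB11. The difference of CADM4 passed in all 12 alternatives. PCDH10 lost it without si-SET replicate 1 (−0.99, adjusted p = 0.185) and without si-ZBTB11 replicate 2 (−0.98, adjusted p = 0.135), within 0.00212 to 0.185. For CADM2, PCDH1 and PCDHGA3 the differences were −0.49 (95% confidence interval −1.21 to 0.23), 0.01 (−0.57 to 0.59) and −0.00 (−0.18 to 0.17), and none passed.

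PCDHB2 differed by −0.37 (standard error 0.12, edgeR adjusted p = 0.0339) and PCDHB5 by −0.25 (standard error 0.09, adjusted p = 0.0484) between the knockdowns. The former was lost without si-SET replicate 2 (−0.30, adjusted p = 0.185), without si-ZBTB11 replicate 1 (−0.20, adjusted p = 0.404) and with DESeq2 (0.206), within 0.00199 to 0.404. The latter was lost in 8 of 12 alternatives, among them each that left out 1 library (adjusted p = 0.0807 without si-SET replicate 1, 0.224 without si-SET replicate 2, 0.223 without si-ZBTB11 replicate 1 and 0.108 without si-ZBTB11 replicate 2), within 0.0324 to 0.268.

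The partners of these adhesion molecules were read from lists of related genes, to be set against 9.94% higher and 10.5% lower of all genes tested with si-ZBTB11 and 13.1% higher and 13.9% lower with si-SET. Of the 11 catenins and adherens junction linkers tested, 1 passed with si-ZBTB11, VCL at −0.16 (edgeR adjusted p = 0.000119). With si-SET 2 rose and 2 fell, ARVCF, a p120-type catenin, by the most at −0.68 (standard error 0.07, adjusted p = 6.17e-15) and VCL at −0.21 (adjusted p = 6.03e-07). CTNNB1 and CTNNA1, the core catenins, had log2 fold changes between −0.03 and −0.01 in both comparisons and did not pass. Of 4 nectins tested, NECTIN1 and NECTIN2 fell in both, by 0.45 and 0.13 on the log2 scale with si-ZBTB11 (adjusted p = 0.000124 and 0.00949) and by 0.50 and 0.16 with si-SET (adjusted p = 1.45e-05 and 0.00190).

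Of 5 desmosomal genes tested, DSP fell with si-ZBTB11 (−0.23, edgeR adjusted p = 0.00111) and DSG2 with si-SET (−0.29, adjusted p = 4.22e-05). Among the other members of the cadherin superfamily, 1 rose and 3 fell of 14 tested with si-ZBTB11, and 3 rose and 1 fell of 15 with si-SET. CELSR2, a large cadherin of planar cell polarity, fell by 0.53 and 0.67 on the log2 scale (adjusted p = 0.000364 and 2.80e-06). CLSTN1 went from −0.24 with si-ZBTB11 (adjusted p = 2.86e-05) to 0.12 with si-SET (adjusted p = 0.0360), and FAT1 rose with si-SET by 0.23 (adjusted p = 2.10e-05). Of 8 cytoplasmic and surface partners of CADM proteins tested, CASK (−0.36, adjusted p = 0.000699) and EPB41L2 (−0.15, adjusted p = 0.00425) fell and MPP2 (0.35, adjusted p = 0.0414) rose with si-ZBTB11, and with si-SET EPB41L1 rose (0.39, adjusted p = 0.00257) and MPP3 fell (−0.50, adjusted p = 0.0383).

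The 14 regulators of clustered protocadherin promoters, among them CTCF, cohesin and DNA methyltransferases, were all tested. With si-ZBTB11 1 rose (7.14%, background 9.94%) and 2 fell (14.3%, background 10.5%), including the cohesin subunit SMC1A (−0.21, edgeR adjusted p = 5.65e-05). With si-SET 4 passed (28.6%, background 13.1%), all of them higher, including the cohesin subunits SMC3 (0.21, adjusted p = 0.000293) and SMC1A (0.17, adjusted p = 0.000785). Their part in the protocadherin values was not tested. Of 8 cadherin sheddases and gamma-secretase subunits tested, 1 rose and 1 fell with si-ZBTB11 (12.5% each way) and 1 rose (12.5%) and 3 fell (37.5%) with si-SET, with APH1A at 0.20 (adjusted p = 0.00137) and −0.36 (adjusted p = 2.64e-08). Of 8 transcriptional repressors of cadherin genes tested, TCF3 rose in both, by 0.32 (adjusted p = 5.31e-07) and 0.31 (adjusted p = 4.61e-07), and TCF4 fell with si-SET (−0.20, adjusted p = 0.0450). The epithelial keratins KRT7, KRT8 and KRT18 fell in both, KRT8 by 0.33 (adjusted p = 6.28e-12) and 0.31 (adjusted p = 1.09e-10) on the log2 scale.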

How the data were processed

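RNA of 6 libraries was made with a kit that does not keep strand and sequenced in pairs. The authors aligned reads with HISAT2 2.0.5 to hg38 and deposited raw counts per gene from featureCounts 1.5.0-p3. The annotation and the handling of multiply mapped reads are not given in the sources used here. The deposited counts, 16653115 to 17694522 per library, were tested with edgeR 4.0.16 in R 4.3.3 (filterByExpr, TMM, quasi-likelihood test on the 2 groups compared, Benjamini-Hochberg over all genes tested, threshold 0.05), after a test on simulated data. With 2 libraries per group, precision is limited. Alternatives were DESeq2 1.42.0, other scalings and filters, all 6 libraries in 1 fit, the replicate number as a block, each library left out, and, chosen after seeing the data, edgeR's newer quasi-likelihood method. Members named with values had at least 10 counts in every library or passed the test, besides CDH1, CDH2 and the CADM genes. PCDHA8, PCDHB9 and the members of the closing section that were too low for the main test were added after their values were seen. From each related list, the 2 genes with the smallest p that passed were named (1 of them is not reported here), and MPP2, CLSTN1 with si-SET, the core catenins and the keratins were added after their values were seen. Members and lists were chosen with earlier results of these data known. Exon lengths came from GENCODE version 44 and promoters from RefSeq, GRCh38.p14.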

Additional observations from a re-analysis of the deposited data

Results flagged for a closer look

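In 4 members the effect differed between the knockdowns by edgeR's test of si-ZBTB11 against si-SET, with lower levels after si-ZBTB11 in each. The log2 difference was −0.46 for CADM4, −1.30 for PCDH10, −0.37 for PCDHB2 and −0.25 for PCDHB5. CADM4 had fallen against si-Ctr with si-ZBTB11, PCDH10 and PCDHB2 had risen with si-SET, and PCDHB5 had risen with both. In all 4 genes both si-ZBTB11 libraries lay below both si-SET libraries, which is no separate support because the genes were chosen by this test. The difference of CADM4 passed in all 12 alternatives. Those of PCDH10 and PCDHB2 were each lost in at least 1, and that of PCDHB5 in 8 of 12.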

How the results depend on the processing

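No call of a member changed direction under the alternatives run. With DESeq2, the number of members called fell from 3 to 2 higher (CADM2 had no adjusted p) and from 2 to 1 lower with si-ZBTB11. It fell from 8 to 3 higher and from 4 to 0 lower with si-SET, and from 4 to 1 lower in si-ZBTB11 against si-SET. At an unadjusted p under 0.05, DESeq2 gave 4 members lower with si-SET, CDH15, PCDH1, PCDHB6 and PCDHGA11, but not CDH24. The number passing the criteria of the study fell from 2 to 1 with si-ZBTB11 and from 2 to 1 between the knockdowns. Over all genes, DESeq2 called 1298, 1769 and 1217 in the 3 comparisons, against 2771, 3667 and 2465 in edgeR. With at least 10 counts in every library, the members passing the criteria of the study fell to 1 with si-ZBTB11 and from 5 to 2 with si-SET, and all genes passing them to 113, 155 and 101 from 213, 293 and 184. Leaving out 1 library gave 2 to 3 members higher and 1 to 2 lower with si-ZBTB11, 5 to 8 higher and 1 to 3 lower with si-SET, and 0 to 1 higher and 2 lower between the knockdowns. The criteria of the study were then passed by 1 to 3, 3 to 6 and 1 to 2 members. A lone library was assumed to vary like the other group. Over all genes, the number past an adjusted p of 0.05 fell in these fits as well, and more members were tested. These counts therefore do not set the members against other genes. Libraries with the same replicate number did not deviate together (correlations 0.00841, 0.0442 and 0.0250). With the replicate number as a block, 1 member was higher between the knockdowns, PCDHA11 (0.54, adjusted p = 0.0494), in place of 0, and PCDHB10 passed with si-SET (0.76, adjusted p = 0.0469). Of the values of single members, with or without a call in the main test, 1228 kept their side of the threshold, 44 lost a call and 9 gained one. Values without a call could not lose one, so the 44 all fall on the called members. Members under the floor of 3 counts could not be compared at this depth, and with low counts, as in CADM2 and PCDH19, 1 library can decide a call.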

Other observations

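Of the 93 members, 44 were too low for the main edgeR test in any comparison, and the following of them were chosen after their counts were seen. DESeq2, which was run without that filter, gave PCDHGA11 as lower with si-SET at an unadjusted p under 0.05, without a call after adjustment. PCDHGA11 had 11 and 9 counts with si-Ctr, 3 and 6 with si-ZBTB11 and 1 and 2 with si-SET. PCDHA1 had 4 and 4, 3 and 7, and 9 and 12 counts in the same order of groups, and PCDHA6 had 2 and 4, 5 and 7, and 8 and 11. The controls of PCDHGA11 were its highest libraries, and the si-SET libraries of PCDHA1 and PCDHA6 their highest. PCDHB8 had 3 and 3 counts with si-ZBTB11 and 0 in the other 4 libraries, which is at the floor.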
